A study of Mus musculus with 15 samples.

Results

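The genes described here are 9 members of the complement system and its receptors on macrophages: the C1q chain genes C1qa, C1qb and C1qc, the component gene C3, the properdin gene Cfp, the anaphylatoxin receptor genes C3ar1 and C5ar1, and Itgam and Itgb2, which encode the integrin called complement receptor 3. They were listed by symbol, but with earlier results of these data known, so the choice was not blind to the values. All 9 were found among the 55486 genes of the count table and among the 14843 genes that passed the filter on low counts. The libraries were bulk RNA-seq of macrophages sorted from primary brain tumours of mice whose gliomas arose from enforced PDGFB expression in Nestin-positive progenitor cells on an Ink4a/Arf-knockout background. That genotype was common to all groups, and no tumour-free brain was among the samples analysed here. Sorted cells were either microglia, which reside in the brain from early life, or macrophages derived from blood monocytes (MDM), and each kind was divided into lipid-laden and non-lipid-laden cells. Microglia gave 4 libraries of either kind; MDM gave 4 without lipid load and 3 with it. Titles carry the numbers 221, 224, 431 and 718, which recur across the groups and are used here to name libraries; lipid-laden MDM had none of number 431. No source used here gives the sort markers, the lipid stain or the animals' age, and whether the integrin encoded by Itgam served as a gate is not known.

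Complement is a cascade of plasma and tissue proteins that tags cells and debris. C1q, built from the A, B and C chains, starts the classical pathway, properdin stabilises the convertase of the alternative pathway, and both pathways cleave C3. Fragments of C3 and C5 act on the receptors encoded by C3ar1 and C5ar1, and complement receptor 3 takes up particles coated with processed C3. In the brain, microglia are the main source of C1q, and C1q, C3 and complement receptor 3 are known for their part in the removal of synapses.

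All 10 microglial markers checked were lower in non-lipid-laden MDM than in microglia and all 10 MDM markers were higher, so origin labels and markers went the same way. Lipid-laden MDM lay between by group mean: their summed microglial markers were 6880 to 10100 CPM (counts scaled to library size), against 2160 to 3730 in non-lipid-laden MDM. Non-lipid-laden microglia were at 9970 to 16000 CPM and lipid-laden microglia at 6790 to 17700 CPM, and the lipid-laden MDM overlapped both. Markers of dendritic cells summed to 1230 to 2760 CPM in non-lipid-laden MDM, 187 to 248 in lipid-laden MDM and at most 58.6 in microglia. Markers of glioma and progenitor cells summed to 94.2 to 397 CPM in all microglia, 8.86 to 19.3 in non-lipid-laden MDM and 61.6 to 128 in lipid-laden MDM. Of 10 neutrophil markers, Ly6g and Camp were at 0 in every group and others were present: the list summed to 229 to 331 and 152 to 312 CPM in microglia without and with lipid load, and to 99.5 to 160 and 153 to 633 CPM in MDM. Csf3r made up much of these sums, with group means of 110 to 272 CPM. In bulk samples such as these, fewer cells of a type and less RNA per cell cannot be told apart. Total counts ranged from 7798952 to 11419338 per library, and the lowest count of any of the 9 genes in a library was 68, for Cfp in lipid-laden microglia.

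The stretches upstream of 4 of the genes are shown because C1qb and C1qc moved together across the groups while Cfp and C3 each followed a pattern of their own. RefSeq promoter sequences on the build GRCm38.p6 were found for 7 of the 9 genes (not for C1qa or Itgb2). Each stretch lies upstream of the annotated start on the gene's own strand, all 4 genes being on the minus strand, at chr4:136886201-136886450 for C1qb, chr4:136893066-136893164 for C1qc, chr17:57228137-57228386 for C3 and chrX:20931556-20931805 for Cfp. Capitals mark GAGGAA, a core that ETS factors such as the macrophage regulator PU.1 can bind, and TTGCNNAA, a core of C/EBP factors, searched on both strands.
C1qb: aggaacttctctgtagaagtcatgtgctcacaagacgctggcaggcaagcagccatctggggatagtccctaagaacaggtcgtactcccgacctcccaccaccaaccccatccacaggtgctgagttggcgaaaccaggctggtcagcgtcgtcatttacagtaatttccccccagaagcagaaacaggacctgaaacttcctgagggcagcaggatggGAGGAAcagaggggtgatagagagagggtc
C1qc: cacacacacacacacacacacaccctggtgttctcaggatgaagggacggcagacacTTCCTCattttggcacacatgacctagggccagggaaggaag
C3: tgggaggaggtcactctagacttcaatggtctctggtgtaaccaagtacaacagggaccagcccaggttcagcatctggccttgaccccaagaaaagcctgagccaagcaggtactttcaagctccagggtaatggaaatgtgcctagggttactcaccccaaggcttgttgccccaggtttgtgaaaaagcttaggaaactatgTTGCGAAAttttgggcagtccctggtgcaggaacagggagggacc
Cfp: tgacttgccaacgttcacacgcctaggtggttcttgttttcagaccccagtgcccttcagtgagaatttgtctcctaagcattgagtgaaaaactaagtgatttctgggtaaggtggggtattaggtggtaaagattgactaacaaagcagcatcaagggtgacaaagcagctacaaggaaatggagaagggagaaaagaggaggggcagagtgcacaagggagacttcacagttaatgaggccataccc
The C1qb stretch held 1 GAGGAA and the shorter C1qc stretch 1 on the opposite strand. The C3 stretch held 1 TTGCNNAA, and the Cfp stretch held neither motif. Of the stretches found but not shown, those of C3ar1 (246 bases) and C5ar1 (48 bases) held neither motif. The Itgam stretch (250 bases) held 2 GAGGAA. Of all 32851 RefSeq promoters, 23.3% held GAGGAA and 9.56% held TTGCNNAA in the same 250 bases, and 9.91% held GAGGAA in the first 99 bases. These 99 bases were matched to the C1qc stretch in length, not in distance from the annotated start. A match is a description of the letters only.

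The C1q genes lie side by side on chromosome 4 of mm10, C1qb at 136880129 to 136886187, C1qc at 136889804 to 136893065 and C1qa at 136895917 to 136898803. They were among the most abundant transcripts of every group. Per kilobase of merged exon (RPKM), C1qb was at 4781 ± 466 without and 4717 ± 656 with lipid load in microglia (SD, n = 4 each). In MDM it was at 2558 ± 227 without (SD, n = 4) and 4458 ± 95.8 with lipid load (SD, n = 3). By that level it ranked 3 of 14837 genes in both microglial groups and in lipid-laden MDM, and 8 in non-lipid-laden MDM. On the same scale C1qa came next, at 2775 ± 352 RPKM in non-lipid-laden microglia and 1124 ± 119 in non-lipid-laden MDM, and C1qc after it, at 2263 ± 241 and 951 ± 118. The order C1qb, C1qa, C1qc held for the group mean RPKM of all 4 groups. By CPM, without division by length, C1qc was above C1qa in each group (4371 against 2886 CPM in non-lipid-laden microglia, 1836 against 1169 in non-lipid-laden MDM). Together the 3 genes took 1.10 to 1.40% of all counts in microglia without and 1.06 to 1.51% in those with lipid load, but 0.46 to 0.60% and 1.05 to 1.12% in the corresponding MDM.

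C1qb, the B chain gene, was at 4579, 5353, 5085 and 5791 CPM in non-lipid-laden microglia of numbers 221, 224, 431 and 718. It was at 4510, 6152, 5042 and 4826 CPM in the lipid-laden microglia of the same numbers. In non-lipid-laden MDM it was at 2930, 2420, 2947 and 2837 CPM, and in lipid-laden MDM at 4970, 4784 and 4796 CPM for 221, 224 and 718. All 4 non-lipid-laden MDM libraries were below every other library, and the remaining groups overlapped. C1qa, the A chain gene, had the same arrangement, with 993 to 1276 CPM in non-lipid-laden MDM and 2134 to 3624 CPM in the other 11 libraries. C1qc, the C chain gene, was at 1499 to 1996 CPM in non-lipid-laden MDM and at 3732 to 5310 CPM elsewhere.

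**Figure D1:**
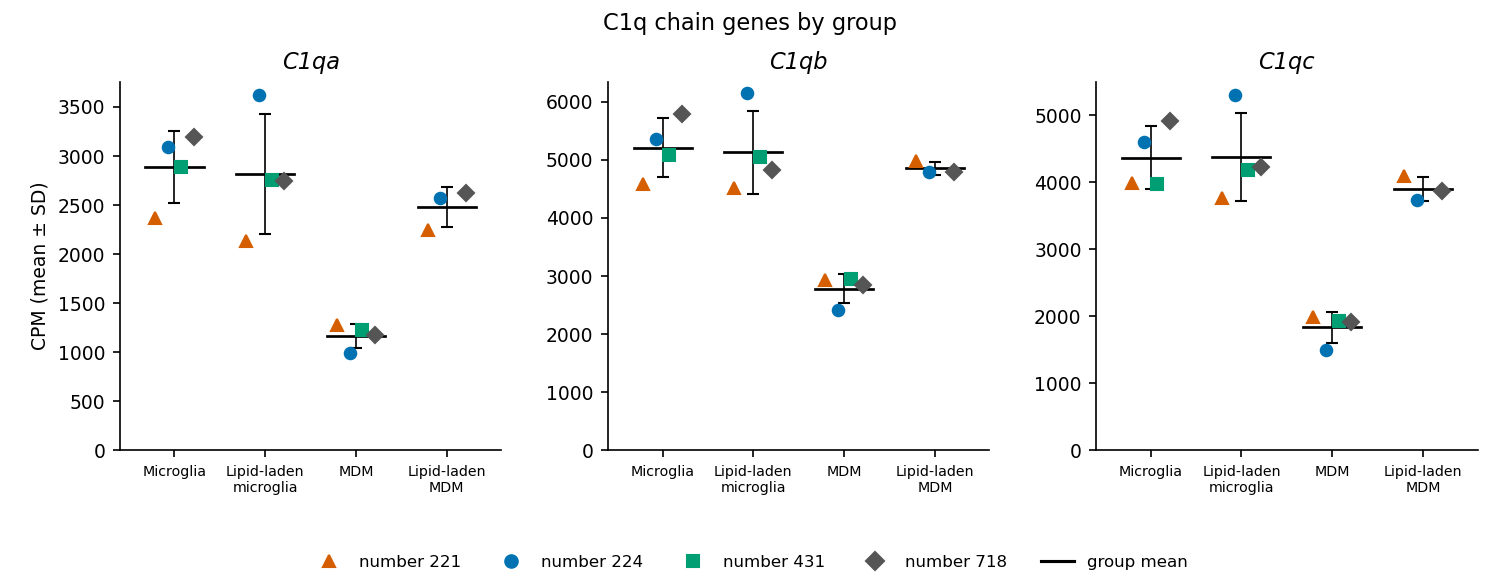
Levels of the C1q chain genes by group. Each panel plots CPM of 1 gene on a linear axis from 0, with a point per library shaped and coloured by its number, a horizontal line for the group mean and whiskers for the SD. The non-lipid-laden MDM libraries lie lowest in each panel (C1qb 2420 to 2947 CPM), and the other groups overlap.

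Non-lipid-laden MDM were compared with non-lipid-laden microglia to set origin apart from lipid load. In edgeR's quasi-likelihood test at an adjusted p under 0.05, 7 of the 9 genes differed, 6 lower and 1 higher in MDM, where 23.2% of all genes tested differed (12.5% lower, 10.7% higher). The same 7 genes had groups that did not overlap, as 28.6% of all genes did. C1qa was 2.47-fold lower in MDM (log2 fold change -1.30, SE 0.15, edgeR adjusted p = 1.69e-05). C1qb was 1.87-fold lower (-0.90, SE 0.11, edgeR adjusted p = 3.64e-05) and C1qc 2.38-fold lower (-1.25, SE 0.13, edgeR adjusted p = 5.68e-06). Each C1q gene was lower in MDM in 4 of 4 number-matched pairs. The chains did not change evenly: C1qb made up 54.4 to 56.2% of the summed C1q RPKM in non-lipid-laden MDM and 47.9 to 49.2% in non-lipid-laden microglia, which did not overlap, while lipid-laden MDM were at 49.3 to 51.6%. Microglial markers, as given above, moved with C1q over these groups, and their part in the result was not tested.

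The receptor genes were lower in MDM as well. C3ar1, the receptor gene for the C3a fragment (chromosome 6, 122847138 to 122856161), was at 1731, 975, 679 and 1099 CPM in non-lipid-laden microglia of numbers 221, 224, 431 and 718. In non-lipid-laden MDM it was at 676, 461, 324 and 658 CPM in the same order. The groups did not overlap, but the highest MDM library (676 CPM) was close to the lowest microglial library (679 CPM), and libraries of number 221 were the highest in both. C3ar1 was 2.12-fold lower in MDM (-1.08, SE 0.29, edgeR adjusted p = 0.0133), a call that was lost without non-lipid-laden microglial library 221 (-0.77, edgeR adjusted p = 0.0529). With the number as a block C3ar1 was called with a smaller SE (-1.06, SE 0.12, edgeR adjusted p = 4.48e-05). The pairing by number did not meet its rule for this comparison, as given further on. C5ar1, the receptor gene for the C5a fragment (chromosome 7, 16246743 to 16259540), was at 677, 616, 496 and 733 CPM in those microglia and at 272, 259, 179 and 263 CPM in those MDM. It was 2.60-fold lower in MDM (-1.38, SE 0.19, edgeR adjusted p = 7.99e-05). The difference held its direction in 4 of 4 pairs for both receptors.

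The integrin chains parted. Itgam, the alpha chain (CD11b) gene of complement receptor 3 (chromosome 7, 128062640 to 128118491), was at 398, 494, 412 and 483 CPM in non-lipid-laden microglia and at 141, 157, 186 and 162 CPM in non-lipid-laden MDM of numbers 221, 224, 431 and 718. It was 2.77-fold lower in MDM (-1.47, SE 0.14, edgeR adjusted p = 2.51e-06). Itgb2, the beta chain (CD18) gene that other leukocyte integrins share (chromosome 10, 77530252 to 77565708), was at 888, 804, 830 and 857 CPM in those microglia and at 907, 1085, 702 and 867 CPM in those MDM, which overlapped. It did not pass (0.08, SE 0.17, edgeR adjusted p = 0.795), and its direction turned with upper-quartile scaling (-0.01) and with total counts (-0.03). The ratio of Itgb2 to Itgam in RPKM was accordingly 3.15 ± 0.441 in microglia and 9.27 ± 2.29 in MDM (SD, n = 4 each).

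**Figure D2:**
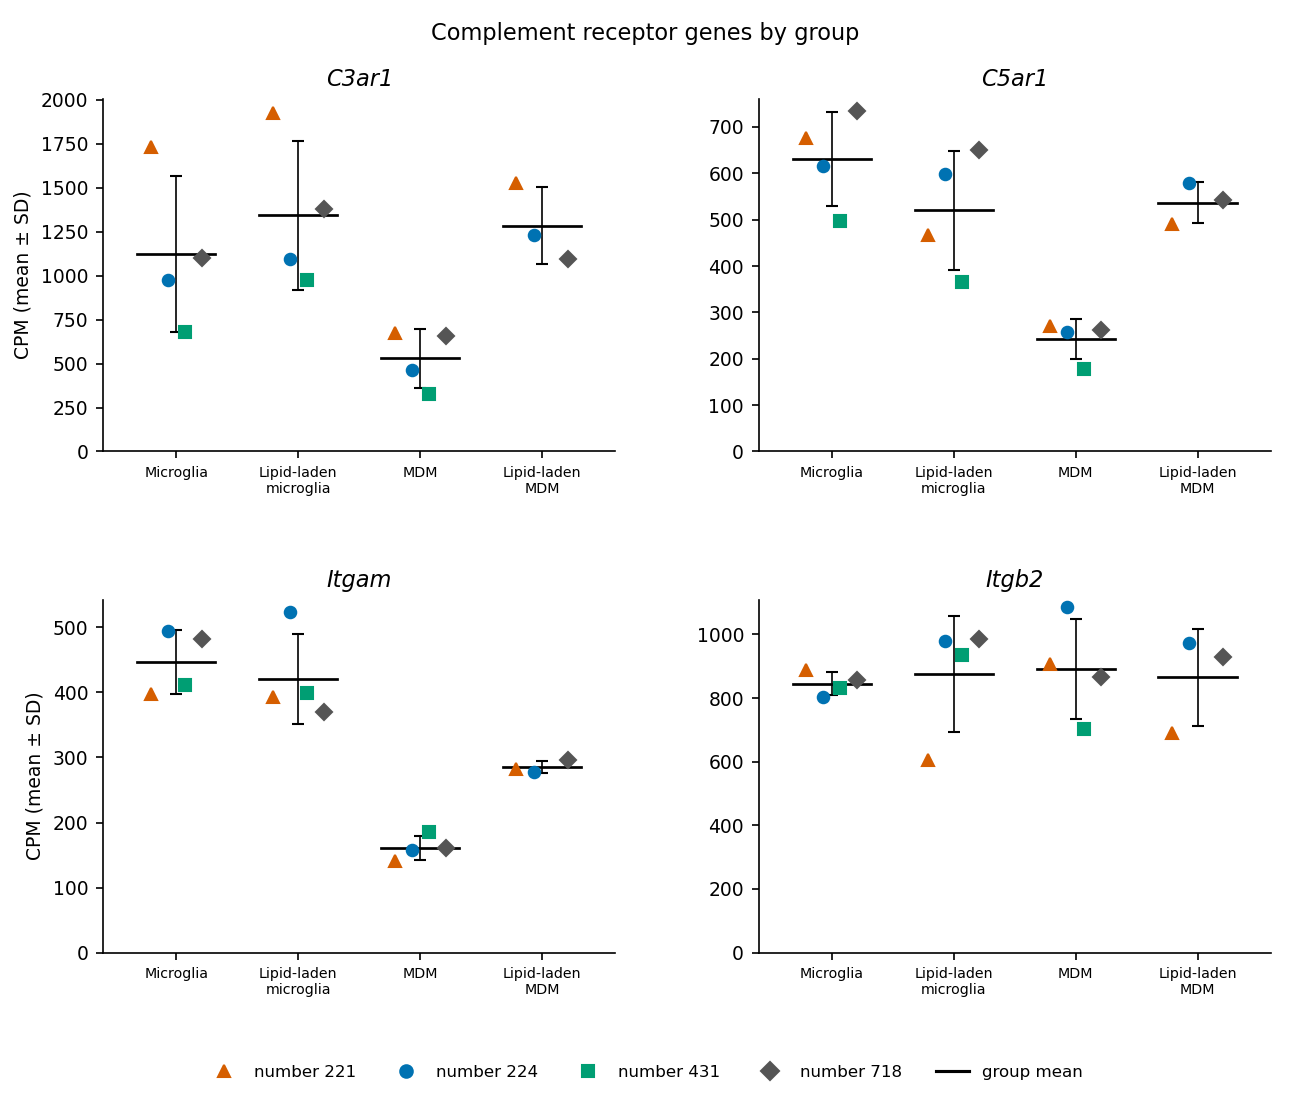
Levels of the complement receptor genes by group. Each panel plots CPM on a linear axis from 0, with a point per library by number, a horizontal line for the group mean and whiskers for the SD. C3ar1, C5ar1 and Itgam are lowest in non-lipid-laden MDM (Itgam 141 to 186 CPM), and the Itgb2 groups overlap.

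Cfp ran against the others. Cfp, the properdin gene (chromosome X, 20925454 to 20931555), was at 1054, 1089, 1255 and 1182 CPM in non-lipid-laden MDM of numbers 221, 224, 431 and 718. In non-lipid-laden microglia it was at 14.9, 23.3, 8.42 and 18.1 CPM, so every MDM library was far above every microglial library. The log2 fold change was 6.14 (SE 0.52, edgeR adjusted p = 1.22e-06), or 70.7-fold higher in MDM. By RPKM it ranked 55 of 14837 genes in non-lipid-laden MDM and 4501 in non-lipid-laden microglia. All 10 dendritic cell markers and all 10 MDM markers were higher in non-lipid-laden MDM too, as were 6 of 10 T and NK cell markers. The part of these lists in the Cfp result was not tested. C3, the central component (chromosome 17, 57203970 to 57228136), did not pass (-0.18, SE 0.85, edgeR adjusted p = 0.914), and its levels are given further on.

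Lipid-laden MDM and lipid-laden microglia were compared next, to see the same contrast of origin among lipid-laden cells. Here 1 of the 9 genes, Cfp, was called, where 2.78% of all genes tested were called (2.2% higher and 0.579% lower in MDM). Cfp was at 236, 230 and 254 CPM in lipid-laden MDM of numbers 221, 224 and 718. It was at 19.3, 7.57, 10.6 and 50.8 CPM in lipid-laden microglia of 221, 224, 431 and 718, a 10.9-fold difference (3.44, SE 0.48, edgeR adjusted p = 0.000824) with no overlap. Lipid-laden microglial library 718 was the highest of its group, and without it the log2 fold change of Cfp was 4.26 (edgeR adjusted p = 6.27e-05). Itgam was at 283, 277 and 296 CPM in those MDM and at 392, 523, 400 and 370 CPM in those microglia. These groups did not overlap either, so that 2 of the 9 genes were without overlap, as were 12.5% of all genes. Itgam had a log2 fold change at -0.56 (SE 0.15, edgeR adjusted p = 0.0514), and with the number as a block it passed (-0.55, edgeR adjusted p = 0.0395), where 3.83% of all genes were called. C1qa (-0.18, SE 0.16), C1qb (-0.08, SE 0.12) and C1qc (-0.17, SE 0.14) did not pass, with edgeR adjusted p of 0.683, 0.838 and 0.65. C3ar1, C5ar1, Itgb2 and C3 had log2 fold changes between -0.06 and 0.09 (edgeR adjusted p of 0.96 or more), and these 4 and C1qb turned in sign under some settings.

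Within microglia, lipid-laden and non-lipid-laden cells were compared to describe lipid load in resident cells. None of the 9 genes passed with edgeR, where 0% of all genes tested were called, and 0 of the 9 were at an unadjusted p under 0.05, against 1367 of all 14843 genes. No gene of the 9 had groups without overlap, against 5.46% of all genes. DESeq2 and limma-voom also called 0 of the 9, against 164 and 0 of all 14843 genes. EdgeR with the number as a block called 0 of 9 against 0.802% of all genes. In that block fit 2 of the 9, 1 higher and 1 lower, were at an unadjusted p under 0.05, against 1859 of all 14843 genes. The log2 fold changes of C1qa, C1qb and C1qc were -0.04 (SE 0.15), -0.02 (SE 0.11) and 0.00 (SE 0.12), and their small signs turned with the setting. C3ar1 was higher in the lipid-laden library of each number, at 1926, 1092, 974 and 1376 CPM for 221, 224, 431 and 718, by 0.15 to 0.52 on the log2 scale (0.26, SE 0.29, edgeR adjusted p = 0.88; 0.29, edgeR adjusted p = 0.353 with the block). C5ar1 was lower in the lipid-laden library of each number, at 466, 599, 366 and 649 CPM in the same order (-0.28, SE 0.18, edgeR adjusted p = 0.706; -0.30, edgeR adjusted p = 0.256 with the block). Neither of these 4-of-4 directions passed the test. Itgam (-0.08, SE 0.13) and Itgb2 (0.05, SE 0.17) differed by less than their SE. Cfp (0.45, SE 0.44) had 1 high library, lipid-laden 718 at 50.8 CPM, and was at -0.35 without it.

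Within MDM, lipid load went with larger differences. The same non-lipid-laden MDM libraries served in the comparison of origins without lipid load, so the results here are not independent of it. Of the 9 genes 7 were called, 6 higher and 1 lower in lipid-laden MDM, where 8.17% of all genes tested were called (5.21% higher, 2.96% lower). C1qa was 2.12-fold higher in lipid-laden MDM (1.09, SE 0.16, edgeR adjusted p = 0.000657), C1qb 1.74-fold (0.80, SE 0.12, edgeR adjusted p = 0.000804) and C1qc 2.12-fold (1.09, SE 0.13, edgeR adjusted p = 0.000188). C5ar1 was at 490, 578 and 541 CPM in lipid-laden MDM of numbers 221, 224 and 718, all above the 179 to 272 CPM of non-lipid-laden MDM. It was 2.21-fold higher (1.14, SE 0.20, edgeR adjusted p = 0.00224). Itgam was 1.77-fold higher (0.82, SE 0.14, edgeR adjusted p = 0.00231), again with no overlap. Groups did not overlap for 7 of the 9 genes, against 21.8% of all genes.

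C3ar1 was at 1525, 1229 and 1096 CPM in lipid-laden MDM of numbers 221, 224 and 718, above every non-lipid-laden MDM library. It was 2.42-fold higher (1.28, SE 0.31, edgeR adjusted p = 0.0175). The call for C3ar1 was lost without non-lipid-laden library 224 (1.22, edgeR adjusted p = 0.0538) or lipid-laden library 221 (1.13, edgeR adjusted p = 0.0733). With the number as a block C3ar1 was called with a smaller SE (1.14, SE 0.135, edgeR adjusted p = 0.00023), although the pairing did not meet its rule here either.

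Cfp went the other way. It fell from 1054 to 1255 CPM in non-lipid-laden MDM to 230 to 254 CPM in lipid-laden MDM, 4.77-fold lower (-2.25, SE 0.48, edgeR adjusted p = 0.00888). The differences within the 3 numbers were close to each other, between -2.24 and -2.16 on the log2 scale. Without the 4 libraries of number 221 the size was kept and the call was not (-2.27, edgeR adjusted p = 0.0613). Itgb2 (-0.04, SE 0.18, edgeR adjusted p = 0.937) and C3 (0.42, SE 0.91, edgeR adjusted p = 0.856) did not pass.

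Markers of other cells moved with these differences inside the MDM. Of the 10 microglial markers 9 were higher in lipid-laden MDM, and the summed level rose from 2160 to 3730 CPM to 6880 to 10100 CPM. Of 7 glioma and progenitor genes 4 were higher. Of the 10 neutrophil markers 7 were tested and 2 were higher; the list summed to 153, 633 and 281 CPM in lipid-laden MDM of numbers 221, 224 and 718, and Retnlg reached 256 CPM in 1 of them against at most 3.32 CPM in non-lipid-laden MDM. Of the 10 dendritic cell markers 6 were lower, with sums of 1230 to 2760 CPM without and 187 to 248 CPM with lipid load. Of the 10 MDM markers 6 were lower and 0 higher, and their sum was 7160 to 7700 CPM without and 5600 to 6710 CPM with lipid load. Within that list Ccr2, a chemokine receptor gene of monocytes, was at 959 ± 243 and 215 ± 65.3 CPM, and Lyz2, the lysozyme gene, at 2890 ± 200 and 4490 ± 432 CPM (SD, n = 4 and 3). Their part in the C1q, receptor and Cfp differences was not tested.

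**Figure D3:**
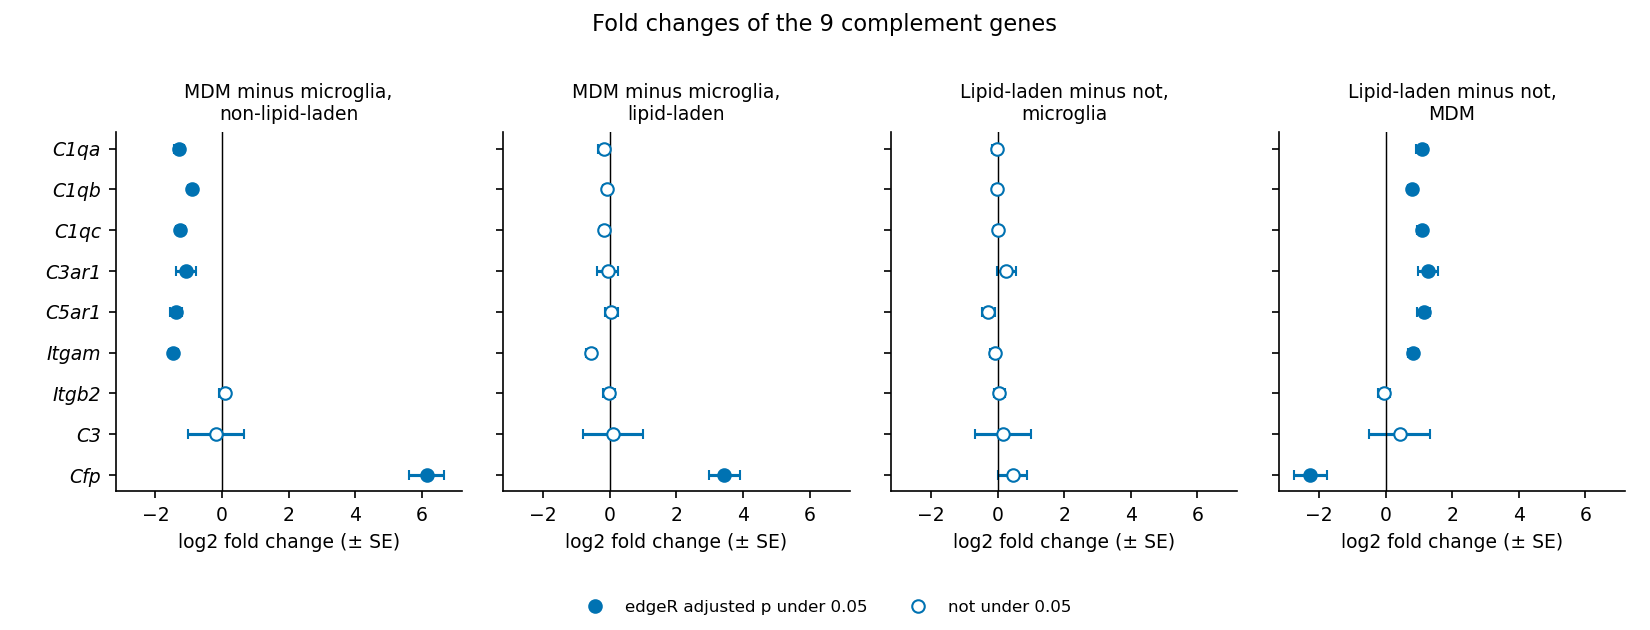
Log2 fold changes of the 9 genes in the 4 comparisons of groups. Points give the edgeR estimate and whiskers its SE; filled points had an adjusted p under 0.05. The C1q genes, C3ar1, C5ar1 and Itgam lie below 0 in the comparison of origins without lipid load and above 0 for lipid load in MDM, Cfp lies opposite (6.14 and -2.25), and no point is filled for lipid load in microglia. Both of those comparisons use the same non-lipid-laden MDM libraries, with opposite sign, so they are not independent.

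The lipid-laden difference was then compared between the origins, as the difference of differences. Of the 9 genes 6 were called, 5 with a more positive difference in MDM and Cfp with a more negative one, where 2.53% of all genes tested were called (1.6% more positive, 0.93% more negative). The difference of log2 fold changes was 1.12 (SE 0.22, edgeR adjusted p = 0.0112) for C1qa, 0.82 (SE 0.16, edgeR adjusted p = 0.014) for C1qb and 1.09 (SE 0.18, edgeR adjusted p = 0.00554) for C1qc. It was 1.42 (SE 0.27, edgeR adjusted p = 0.0108) for C5ar1 and 0.91 (SE 0.20, edgeR adjusted p = 0.0213) for Itgam. For Cfp it was -2.70 (SE 0.64, edgeR adjusted p = 0.0354), and -1.90 without lipid-laden microglial library 718 (edgeR adjusted p = 0.0327). The Cfp call was lost when any of 9 of the 15 libraries was left out (edgeR adjusted p of up to 0.0908), and the Itgam call without non-lipid-laden microglial library 224 (0.0539) or 718 (0.0531) or lipid-laden MDM library 718 (0.069). C3ar1 (1.02, SE 0.42, edgeR adjusted p = 0.234) did not pass. The MDM and microglial contrasts of this test share no library with each other. The test reuses the libraries of the comparisons above, among them the non-lipid-laden MDM, so it is not independent of those comparisons.

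C3 followed the numbers and not the groups. It was at 271 CPM in non-lipid-laden microglia of number 221, and at 53.1, 43.0 and 44.4 CPM in those of 224, 431 and 718. In lipid-laden microglia it was at 334 CPM for number 221 and at 24.7, 42.3 and 56.8 CPM for the others. The library of number 221 was again the highest in non-lipid-laden MDM, at 211 CPM against 54.0, 41.0 and 58.6, and in lipid-laden MDM, at 255 CPM against 65.0 and 47.0. In each group number 221 was thus 3.6 to 5.88 times the highest other library. Group means were 103 ± 112, 115 ± 147, 91.2 ± 80.3 and 122 ± 115 CPM (SD), in the order of microglia without and with lipid load and MDM without and with it, and none of the 4 groups stood apart from its neighbours. Without number 221 they were 46.8 ± 5.48, 41.3 ± 16.1, 51.2 ± 9.14 and 56.0 ± 12.8 CPM (SD, n = 3, 3, 3 and 2). The 5 contrasts of C3 had edgeR adjusted p of 0.856 to 0.988, and DESeq2 gave it no adjusted p.

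A test chosen after these values were seen asked, over all genes, whether the 4 numbers differed given the group. C3 was called (edgeR adjusted p = 0.000278, rank 4 of 14843) and C3ar1 too (edgeR adjusted p = 0.00558, rank 48), that is 2 of the 9 genes, where 1.47% of all genes tested were called. C3ar1 was higher in number 221 than the mean of the other numbers by 0.94, 0.76, 0.55 and 0.39 on the log2 scale in the 4 groups, in the order above. C5ar1 was close to the threshold (edgeR adjusted p = 0.0565), and the other 6 genes had an edgeR adjusted p of 0.515 or more. The titles do not say what the number stands for, so the test compares libraries that share a number. Summed endothelial markers were also highest in number 221 in each group, at 159, 292, 198 and 153 CPM. Any other library was at most at 112 CPM. Microglial marker sums were lowest in number 221 in each group, at 9974, 6793, 2160 and 6882 CPM. The next lowest were at 14740, 13280, 2365 and 8810 CPM. T and NK cell marker sums were highest in number 221 in lipid-laden microglia (10.04 CPM), non-lipid-laden MDM (162.4 CPM) and lipid-laden MDM (95.95 CPM). In non-lipid-laden microglia number 221 was not the highest for them (4.547 CPM). The part of these lists was not tested. Astrocyte markers, from cells that can make C3, were at 92.2 to 186 CPM in all microglia and 57.3 to 114 in MDM. In non-lipid-laden cells they were highest in number 221, both in microglia (186 CPM, next 144) and in MDM (93.3 CPM, next 70.65). In lipid-laden cells number 718 was slightly above number 221, at 120 against 116 CPM in microglia and 114 against 113 CPM in MDM. Their part was not tested either. Neutrophil markers, summed as above, were not highest in number 221 in microglia or in lipid-laden MDM (277, 152 and 153 CPM), but were in non-lipid-laden MDM (160 CPM, next 155).

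**Figure D4:**
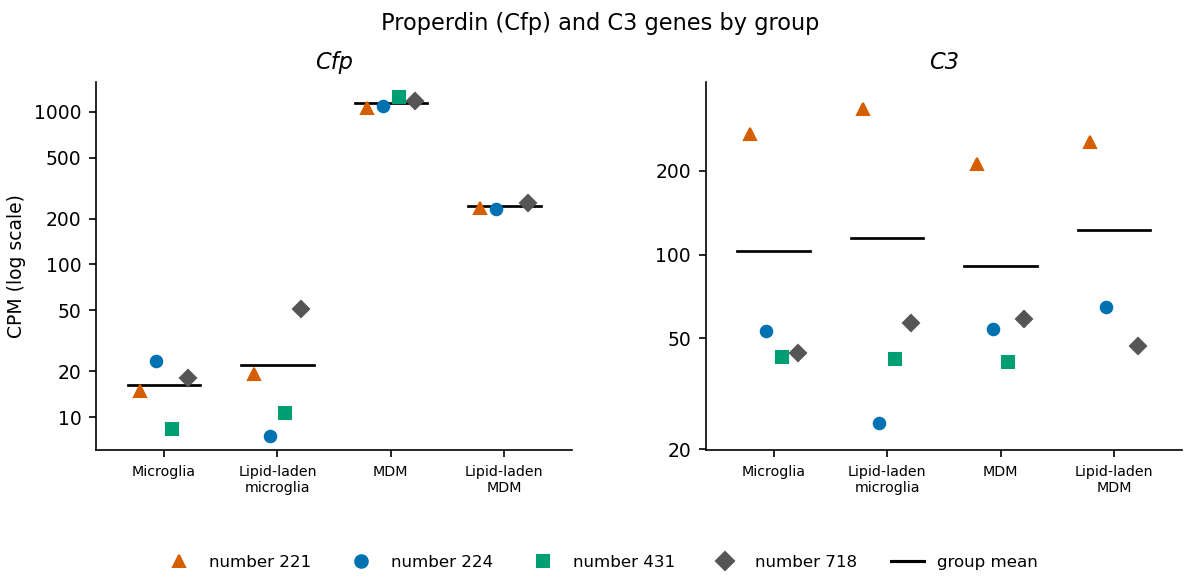
Levels of Cfp and C3 by group on log axes of CPM. Each point is a library, shaped and coloured by its number, and horizontal lines give group means; no error is drawn. Cfp separates by group, with 1054 to 1255 CPM in non-lipid-laden MDM, while C3 separates number 221 (211 to 334 CPM) from the others (24.7 to 65.0 CPM) within every group.

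Likeness of pattern was measured by Pearson's r of log2 CPM with each of 9110 genes of moderate or high level over the 15 libraries, which share depth and composition within a library. It is a description. Trem2, a lipid-sensing receptor gene of microglia, was the nearest to all 3 C1q genes (r = 0.990 for C1qa, 0.991 for C1qb and 0.992 for C1qc), with 909 and 915 CPM on average in microglia without and with lipid load and 318 and 802 CPM in MDM. Next came Grn (0.977) and Olfml3 (0.974) for C1qa, Rab11fip5 and Timp2 (0.976 each) for C1qb, and Tspan4 (0.982) and Timp2 (0.981) for C1qc. Itgam was nearest to Gpr84 (0.982), with Ecscr (0.977) also among the nearest 3. C5ar1 was nearest to Myo1e and Ncan (0.953 each) and Cntn1 (0.951), and C3ar1 to Ly9 (0.967), Tmed4 (0.937) and Scamp1 (0.930). Cfp was nearest to S100a11 (0.993), with 4.58, 6.46, 140 and 34.5 CPM in the groups in that order, then Stx3 (0.975) and Crem (0.973). C3 was nearest to Glrx (0.911), Cryzl1 (0.902) and Tarm1 (0.885). Itgb2 had no close match, the nearest being Rraga (0.810), Trim30b (0.809) and Sgta (0.802).

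The rest of the pathway was read from a list of 50 further complement genes, of which 26 passed the filter on low counts. Of the 7 genes of the terminal pathway 2 passed the filter, and of the 2 further genes of the alternative pathway 1, Cfb, at 0.39 to 1.51 CPM on average in the 4 groups. In non-lipid-laden MDM against microglia, 2 of the 26 were higher and 6 lower, 30.8% in all against 23.2% of all genes tested. C4b, a C4 gene of the classical pathway, was at 221, 202, 89.2 and 252 CPM in non-lipid-laden microglia and at 28.8, 7.55, 13.9 and 16.2 CPM in non-lipid-laden MDM of numbers 221, 224, 431 and 718. The log2 fold change to MDM was -3.52 (SE 0.40, edgeR adjusted p = 1.31e-05); reads shared with the close copy C4a were not set apart. C5ar2, a further C5a receptor gene (-1.72, SE 0.31), and Lrp1, an endocytic receptor gene (-1.08, SE 0.25), were also lower. So were 2 genes of low level, the lectin pathway protease gene Masp1 (-2.94, SE 0.98, edgeR adjusted p = 0.0399) and the C1 inhibitor gene Serping1, which had 0 counts in the 4 MDM libraries and, in microglia, 118 and 12 counts in numbers 221 and 718 and 0 in the other two.

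Higher in non-lipid-laden MDM were Itgax, the alpha chain (CD11c) gene of complement receptor 4, and Cd93. Itgax was at 376, 365, 587 and 437 CPM in MDM of numbers 221, 224, 431 and 718 and at 50.6, 71.5, 110 and 41.8 CPM in microglia (2.68, SE 0.37, edgeR adjusted p = 8.55e-05). It is also a gene of dendritic cells, whose markers were high in the same libraries. Cd93 was at 71.0 against 8.08 CPM on average (3.14, SE 0.94, edgeR adjusted p = 0.0234).

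Within MDM, 3 of the 26 were higher and 1 lower with lipid load, 15.4% against 8.17% of all genes tested. C4b was at 126, 86.0 and 149 CPM in lipid-laden MDM of numbers 221, 224 and 718, above every non-lipid-laden MDM library (2.86, SE 0.40, edgeR adjusted p = 0.000452). Lrp1 was higher (1.10, SE 0.26, edgeR adjusted p = 0.0166), and Itgax was lower (-1.76, SE 0.40, edgeR adjusted p = 0.0118). The median log2 fold change of the 26 genes was 1.02, against 0.04 over all genes. The difference of the lipid-laden effects between the origins was called for 2 of 26, among them C4b (3.16, SE 0.53, edgeR adjusted p = 0.0053), against 2.53% of all genes tested.

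Within microglia, edgeR, DESeq2 and limma-voom each called 0 of the 26 genes, against 0, 164 and 0 of all 14843 genes. In edgeR 1 of the 26 was at an unadjusted p under 0.05, against 1367 of all genes. Among the 3 with the smallest p were Vsig4 and C5ar2 (-0.56, SE 0.30, edgeR adjusted p = 0.593); Vsig4 was at 0 in the lipid-laden libraries and at 0.561 CPM on average without lipid load. Between lipid-laden MDM and lipid-laden microglia, edgeR called 0 of 26 (413 of all 14843 genes), with 6 at an unadjusted p under 0.05 (2188 of all genes). DESeq2 and limma-voom called 2 each, and 798 and 561 of all genes. Among the 3 with the smallest p were Cd93 (3.20, edgeR adjusted p = 0.0995) and Itgax (1.22, edgeR adjusted p = 0.113). With the number as a block, 2 of the 26 were called, against 569 of all 14843 genes. Itgax was among these 2 and was higher in lipid-laden MDM (1.56, edgeR adjusted p = 0.0045).

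**Figure D5:**
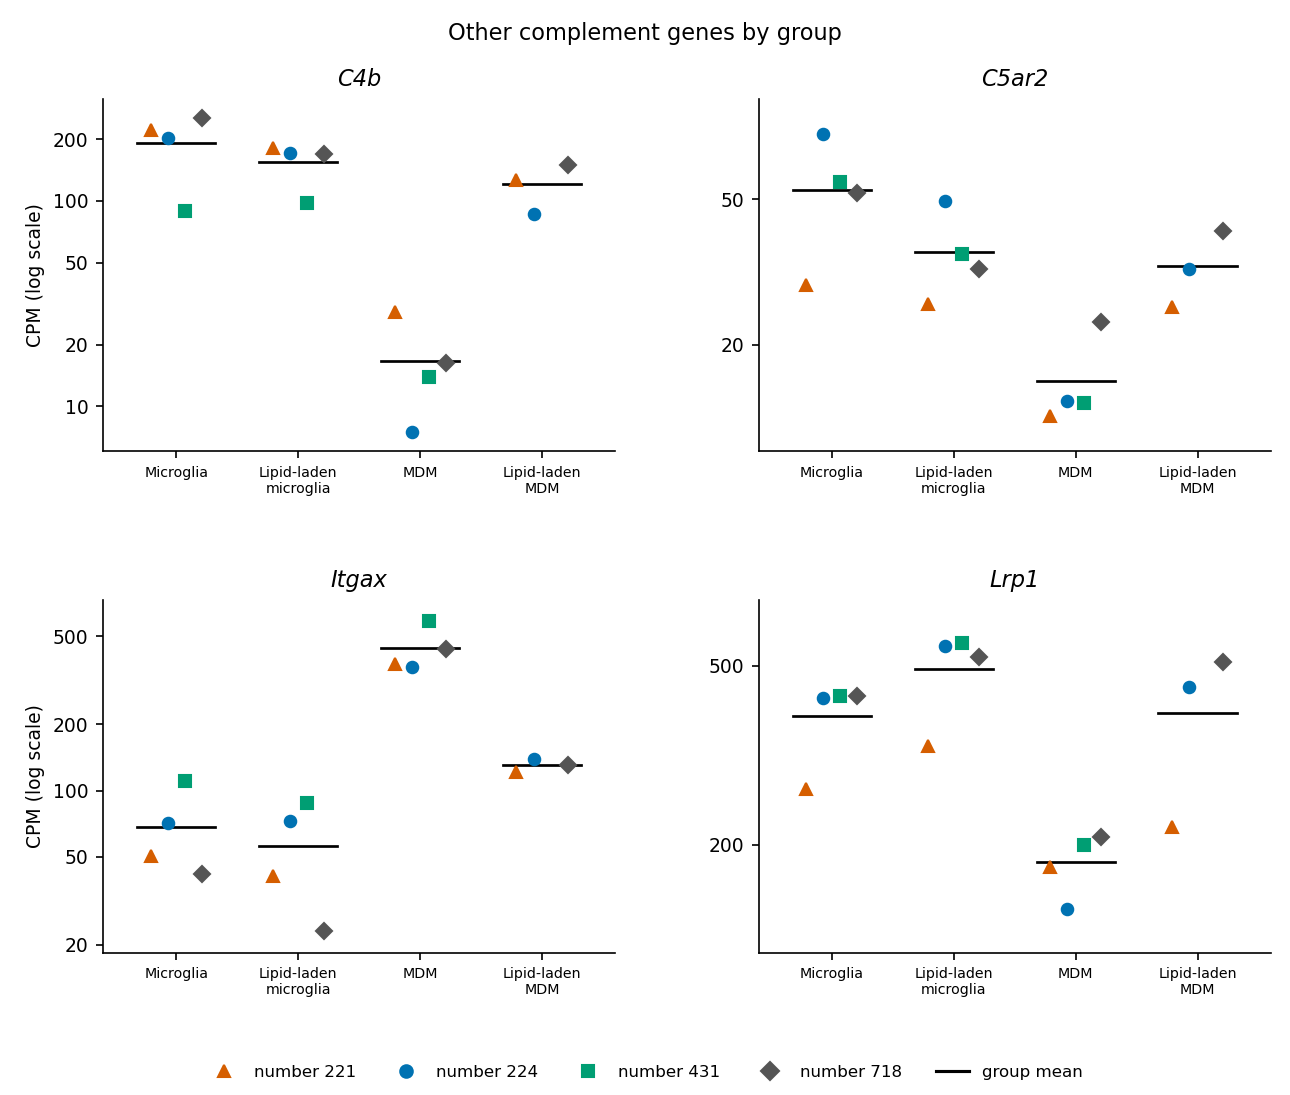
Levels of 4 other complement genes by group on log axes of CPM, with a point per library by number and a horizontal line for the group mean; no error is drawn. C4b and C5ar2 are lowest in non-lipid-laden MDM (C4b 7.55 to 28.8 CPM), Lrp1 lies lowest there too, and Itgax is highest there (365 to 587 CPM).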

How the data were processed

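The authors deposited unnormalized counts of reads for every gene in 15 libraries, per the file header and the values. The submitters' processing notes name the build mm10. Aligner, counting program and strand setting: not given in the sources used here. Libraries were made by oligo-dT priming, per the labels' protocols. The 1 row without a gene name held 0 counts and was dropped. Groups came from the titles. Nothing says that libraries are separate animals, so p-values measure the spread between libraries.

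Counts were tested with edgeR 4.0.16 (R 4.3.3), quasi-likelihood test, TMM scaling, filterByExpr (minimum count 10, minimum total 15), 1 coefficient per group over all 15 libraries, and Benjamini-Hochberg adjustment over 14843 genes, with a call at an adjusted p under 0.05. The test was tried on simulated counts first. SE was taken from the estimate and its F statistic (estimate divided by the root of F). CPM used TMM-scaled library sizes, and RPKM merged exon lengths of GENCODE M21, whose coordinates matched for all 9 genes. Of these only Itgam shares exon bases with another gene, Gm49368, which had at most 22 counts in a library.

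The members, lists and tests were chosen with earlier results of these data known. All members are named. Other complement genes are named if called (at most 8 per comparison), otherwise the 3 with the smallest p, and likeness takes the 3 highest r among genes whose mean log2 CPM reached 3. Lists of T and NK cell, B cell, oligodendrocyte and border macrophage markers were also summed. The alternatives were DESeq2 1.42.0, limma-voom 3.58.1, other scalings, no filter, the 2 groups alone, left-out libraries and the number as a block. Same-numbered libraries deviated together from their group means across genes in both microglial groups (r = 0.124 to 0.256, 4 pairs) and in both lipid-laden groups (0.107 to 0.168, 3 pairs), so the block is taken as a pairing there. The shared numbers in the titles are its only source. Some results that these rules name are not reported here.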

Additional observations from a re-analysis of the deposited data

Results flagged for a closer look

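Of 27 sets of 4 libraries (9 genes in 3 groups), 6 held a library far from the rest by Dixon's test at its 95% critical value, which chance gives in about 1 of 20 sets. For C3 this was the library of number 221 in each of the 3 groups, at 271 CPM in non-lipid-laden microglia (next 53.1), 334 CPM in lipid-laden microglia (next 56.8) and 211 CPM in non-lipid-laden MDM (next 58.6). C1qc was low in non-lipid-laden MDM library 224, at 1499 CPM (next 1921). C5ar1 was low in non-lipid-laden MDM library 431, at 179 CPM (next 259). Itgb2 was low in lipid-laden microglial library 221, at 606 CPM (next 934).

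The lipid-laden difference was unlike in the 2 origins for 6 genes by the test of the difference itself. It was more positive in MDM by 1.12 for C1qa, 0.82 for C1qb, 1.09 for C1qc, 1.42 for C5ar1 and 0.91 for Itgam on the log2 scale, and more negative by -2.70 for Cfp.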

How the results depend on the processing

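The count of members called, of 9, was 7 for the origins free of lipid load, 7 for lipid load in MDM and 0 for lipid load in microglia, and stayed within 1.5 times of that under every alternative run. Among lipid-laden cells it was 1 and became 2, by Itgam, with RLE or upper-quartile scaling, total counts, DESeq2, limma-voom and the replicate block, also with the block and without number 431. It was 1 without any single library. For the difference of effects it was 6, and 4 to 6 without single libraries. It was 3 without number 221 (an alternative added after seeing the data), where C5ar1, Itgam and Cfp had edgeR adjusted p of 0.0529, 0.0753 and 0.136. With the replicate block C3ar1 passed too (0.845, edgeR adjusted p = 0.02), and with the block and without number 718 only 1 member was called, C1qa, C1qb and C1qc being at 0.147, 0.163 and 0.115. The cause was not tested.

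Over all genes, 3442 were called for the origins free of lipid load (2252 with the block and without number 718). Among lipid-laden cells 413 were called, 168 to 378 without single libraries, 798 with DESeq2, 176 with the 2 groups alone, and 217 and 148 with the block and without 224 or 718. For lipid load in MDM 1213 were called, 657 to 1052 without single libraries, 1982 with DESeq2, and 761 and 456 with the block and without 224 or 718. In microglia 0 were called, 0 to 64 without single libraries, 17 with no filter, 164 with DESeq2, 119 with the replicate block, and 68, 17 and 13 with the block and without 224, 221 or 431. For the difference of effects 375 were called, 186 to 452 without single libraries, 960 with DESeq2, 657 with the replicate block and 58 with the block and without 718. Total counts in place of TMM moved the median of all genes by -0.107 for the origins free of lipid load.

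The pairing did not meet its rule for lipid load in MDM and for the origins free of it (lowest r between same-numbered libraries 0.0272 and 0.0152), although 5 of 6 and 8 of 8 libraries correlated best with their own number. The replicate block called 1529 and 3969 genes and 7 members in each.

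Signs turned only for members without a call in that comparison. Single left-out libraries gave these log2 ranges. Among lipid-laden cells: C1qb -0.14 to 0.021, C3 -1.04 to 1.56, C3ar1 -0.21 to 0.16, C5ar1 -0.089 to 0.17, Itgb2 -0.16 to 0.12. Origins free of lipid load: C3 -1.005 to 0.97, Itgb2 -0.032 to 0.19. Lipid load in microglia: C1qa -0.16 to 0.077, C1qb -0.096 to 0.048, C1qc -0.083 to 0.074, C3 -1.31 to 1.31, Cfp -0.35 to 0.76. Lipid load in MDM: C3 -0.71 to 1.254, Itgb2 -0.14 to 0.094. Difference of effects: C3 -0.88 to 1.74, Itgb2 -0.24 to 0.019.

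With the replicate block and without 1 number (224, 221, 431 or 718), the turned values were, among lipid-laden cells, C1qb 0.045, C3 -0.27, C5ar1 -0.090, -0.084 and -0.083, and Itgb2 0.023. For the origins free of lipid load they were C3 0.011, 0.13 and 0.045 and Itgb2 -0.044. In microglia they were C1qa 0.0016 and 0.038, C1qb 0.083, C1qc -0.066 and -0.0011, C3 -0.18, -0.024 and -0.16, Cfp -0.29, Itgam 0.030, and Itgb2 -0.035, -0.0012 and -0.0073. In MDM they were C3 -0.058 and Itgb2 0.064, and for the difference of effects C3 -0.28.

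With all numbers, the replicate block turned C5ar1 among lipid-laden cells (-0.063), C3 between the origins (0.0052) and C3 in microglia (-0.040). Upper-quartile scaling and total counts turned C5ar1 among lipid-laden cells (-0.0012 and -0.026), Itgb2 between the origins (-0.0070 and -0.033) and C1qc in microglia (-0.0013 and -0.020). Limma-voom turned C1qc (-0.0050) and C3 (-0.13) in microglia. Leaving out number 221 turned C3ar1 among lipid-laden cells (0.030), C3 between the origins (0.15), C1qa (0.0031) and C3 (-0.17) in microglia and Itgb2 in MDM (0.11). Levels on RLE-scaled library sizes differed by less than 1 SD for every member and group.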

Other observations

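Within groups, the C1q genes varied together. Over the 15 libraries as deviations from group means of log2 CPM, r was 0.901 for C1qa with C1qb, 0.950 for C1qb with C1qc and 0.828 for C1qa with C1qc, and without number 221 (11 libraries) 0.978, 0.956 and 0.946. Itgam varied with them (0.613 to 0.703, and 0.822 to 0.890 without number 221), while Itgb2, which encodes its partner chain, did not follow Itgam (-0.0761). C3 and C3ar1 had r = 0.812, and 0.519 without number 221. The points share library depth and composition, and these are descriptions of the libraries.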
